A study of Mus musculus with 9 samples.

Results

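The 10 genes described here encode the main heat shock proteins of the mouse cytosol and mitochondrion: Hspb1, Dnaja1, Hspa8, Hspa1a, Hspa1b, Hsp90aa1, Hsp90ab1, Hspd1, Hspe1 and Hsph1. They were taken by symbol from the 54007 rows of a table of liver transcript levels, with no cut on their values. The set was chosen with earlier results of these data known. All 10 were found, and 9 passed the filter on low values (at least 1 FPKM in at least 3 libraries), Hspa1a being the exception. FPKM is the number of sequenced fragments per kilobase of transcript, scaled by a size factor of the library.

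The samples were livers of C57BL/6 mice at postnatal day 98, 3 libraries a group. The control group comprised replicates 1, 2 and 4. The second group was fed a high-fat diet (HFD) and comprised replicates 1, 2 and 3. The third received the same diet and the gut bacterium Papillibacter cinnamivorans by gavage (HFD+Pc) and comprised replicates 1, 3 and 4. The labels give neither the sex of the mice, the make-up of the diets nor whether the RNA of a library came from 1 animal or from several of the 15 in each group. The p-values therefore measure the spread between these libraries, which may be partly technical. A group without diet change that received the bacterium was not analysed here, so the bacterium is measured on the high-fat diet alone.

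Heat shock proteins are chaperones: they bind unfolded or partly folded proteins, prevent their aggregation and help them to fold. HSP70 proteins (Hspa8, the constitutive form, and Hspa1a and Hspa1b, the stress-inducible forms) work in a cycle of ATP hydrolysis that J-domain proteins such as Dnaja1 stimulate and that HSP110 proteins such as Hsph1 reset by releasing ADP. HSP90 (the inducible Hsp90aa1 and the constitutive Hsp90ab1) acts later, on clients such as kinases and nuclear receptors, and Hspb1 is a small heat shock protein that holds unfolded proteins without ATP. Hspd1 (HSP60) and Hspe1 (HSP10) form the folding chamber of the mitochondrial matrix. The factor HSF1 drives many of these genes in stressed cells by binding heat shock elements, which are repeats of the unit nGAAn in alternating orientation.

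The promoters of the members that rose, and of 2 contrasting sets that did not pass the test, are shown because heat shock elements are the sequence these genes are best known to share. RefSeq windows (GRCm38.p6, 250 bases before to 50 after a transcript's start) were at hand for Hspb1, Dnaja1, Hspa1a, Hspa1b, Hspd1, Hspe1 and Hsph1, in 11 windows. The letters GAANNTTC or TTCNNGAA, 2 adjoining units with N for any base, were searched; each reads the same on the opposite strand. The longer motif of 3 units, GAANNTTCNNGAA on one strand and TTCNNGAANNTTC on the other, contains the shorter. Below, the 250 bases before the start are written 5′ to 3′ on the gene's strand, with matches in capitals.

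Hspb1, chr5:135887669-135887918, plus strand: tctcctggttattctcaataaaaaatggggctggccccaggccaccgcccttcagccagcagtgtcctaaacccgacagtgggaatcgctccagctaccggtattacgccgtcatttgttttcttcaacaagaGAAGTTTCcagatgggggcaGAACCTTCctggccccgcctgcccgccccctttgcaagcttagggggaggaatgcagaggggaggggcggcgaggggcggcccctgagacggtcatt

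Dnaja1, chr4:40722218-40722467, plus strand: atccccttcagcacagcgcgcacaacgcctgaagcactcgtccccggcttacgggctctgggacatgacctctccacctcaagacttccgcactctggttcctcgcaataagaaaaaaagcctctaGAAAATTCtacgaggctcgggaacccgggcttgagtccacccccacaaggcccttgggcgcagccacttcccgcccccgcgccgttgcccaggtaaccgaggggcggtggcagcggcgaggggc

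Hsph1, chr5:149636316-149636565, minus strand: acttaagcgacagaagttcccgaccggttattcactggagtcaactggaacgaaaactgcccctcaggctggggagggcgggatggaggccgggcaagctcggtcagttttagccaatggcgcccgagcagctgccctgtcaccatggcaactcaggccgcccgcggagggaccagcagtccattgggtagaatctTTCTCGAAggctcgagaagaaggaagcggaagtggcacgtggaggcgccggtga

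Hspe1, chr1:55087898-55088147, plus strand: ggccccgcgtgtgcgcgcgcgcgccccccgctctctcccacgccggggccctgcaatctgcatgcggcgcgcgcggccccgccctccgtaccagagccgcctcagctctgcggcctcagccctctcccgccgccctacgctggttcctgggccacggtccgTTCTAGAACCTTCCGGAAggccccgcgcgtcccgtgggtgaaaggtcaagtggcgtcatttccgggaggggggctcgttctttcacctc

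Hspa1b, chr17:34959239-34959488, minus strand: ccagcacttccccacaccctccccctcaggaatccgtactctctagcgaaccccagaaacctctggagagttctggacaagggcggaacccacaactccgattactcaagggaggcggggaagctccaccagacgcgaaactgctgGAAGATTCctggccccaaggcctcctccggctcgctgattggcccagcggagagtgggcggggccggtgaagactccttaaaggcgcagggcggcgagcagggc

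The 2-unit motif was found in 8 of the 11 windows, and in at least 1 window of each of the 7 members. Of 32544 distinct windows of the same length over all genes, 15.1% held it. The 3-unit motif was found in 4 windows of 3 members, Hspd1, Hspe1 and Hsph1, against 0.61% of all windows. Hspb1 had 2 separate 2-unit matches, 117 and 97 bases before its start, and Dnaja1 had 1 match, 124 bases before the start of its first window and none in its other two. Hsph1 had its longer match just past the start, in the 15 bases at chr5:149636287-149636301 (minus strand), which read aTTCTGGAAAGTTCt. Hspe1 and Hspd1 lie head to head, and the windows with their matches share 285 bases read on opposite strands, so the merged capitals in the Hspe1 sequence belong to both. The windows of Hspa1a and Hspa1b differ at 4 of 300 bases and hold the same match 104 bases before the start. The 2 windows of Hsph1 also overlap and hold the same matches. The window counts are therefore not counts of separate sites, which limits their comparison with the shares over all windows. A match is a run of letters and not a measured binding site. Of the genes shown, Hspb1, Hsph1 and Dnaja1 rose on the high-fat diet and Hspe1 and Hspa1b did not pass the test, so a match was present in both sets.

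Sequencing gave 16279985 to 18641455 fragments a library that could be recovered from the FPKM steps, and 10323 to 10587 genes reached 1 FPKM. The library size by which the deposited values were divided was 99.1% (control replicate 2) to 110% (HFD replicate 1) of these fragments. It was thus not their plain total. FPKM divides by the length of all annotated exons of a gene, which was 8629 bases for Dnaja1 and 7266 for Hsph1 but 1031 for Hspb1. The levels of Dnaja1 and Hsph1 are therefore read as low where most transcripts are shorter than the sum of exons, and levels between genes are compared with that limit.

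By FPKM, Hsp90ab1 was the highest of the 10 in every library. Its mean was 272 ± 31.2 in control, 266 ± 18.04 in HFD and 269 ± 15.6 in HFD+Pc (SD, n = 3 here and below). Next came Hspa8 (164 ± 24.1, 163 ± 23.1 and 181 ± 8.85 FPKM) and Hspd1 (174 ± 11.7, 169 ± 13.4 and 167 ± 8.71 FPKM), which overlapped each other in all groups. Hsp90ab1, Hspa8 and Hspd1 together made up 76.2% to 83.2% of the summed FPKM of the 10 genes. That sum ranged from 658 to 827 in control, 723 to 809 in HFD and 765 to 835 in HFD+Pc, so the groups overlapped.

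Hspe1 followed at 60.1 ± 8.72, 53.5 ± 4.24 and 60.5 ± 4.07 FPKM. In control, Hsp90aa1, Hspb1 and Dnaja1 came after it in that order, with Hspb1 and Dnaja1 overlapping. In HFD the order changed, because Hspb1 overlapped both Hspe1 and Hsp90aa1 there. Hsph1 and Hspa1b were low, and overlapped in control only: in HFD and HFD+Pc every library of Hsph1 lay above every library of Hspa1b. The least abundant was Hspa1a, at 0 to 4 fragments a library.

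**Figure D1:**
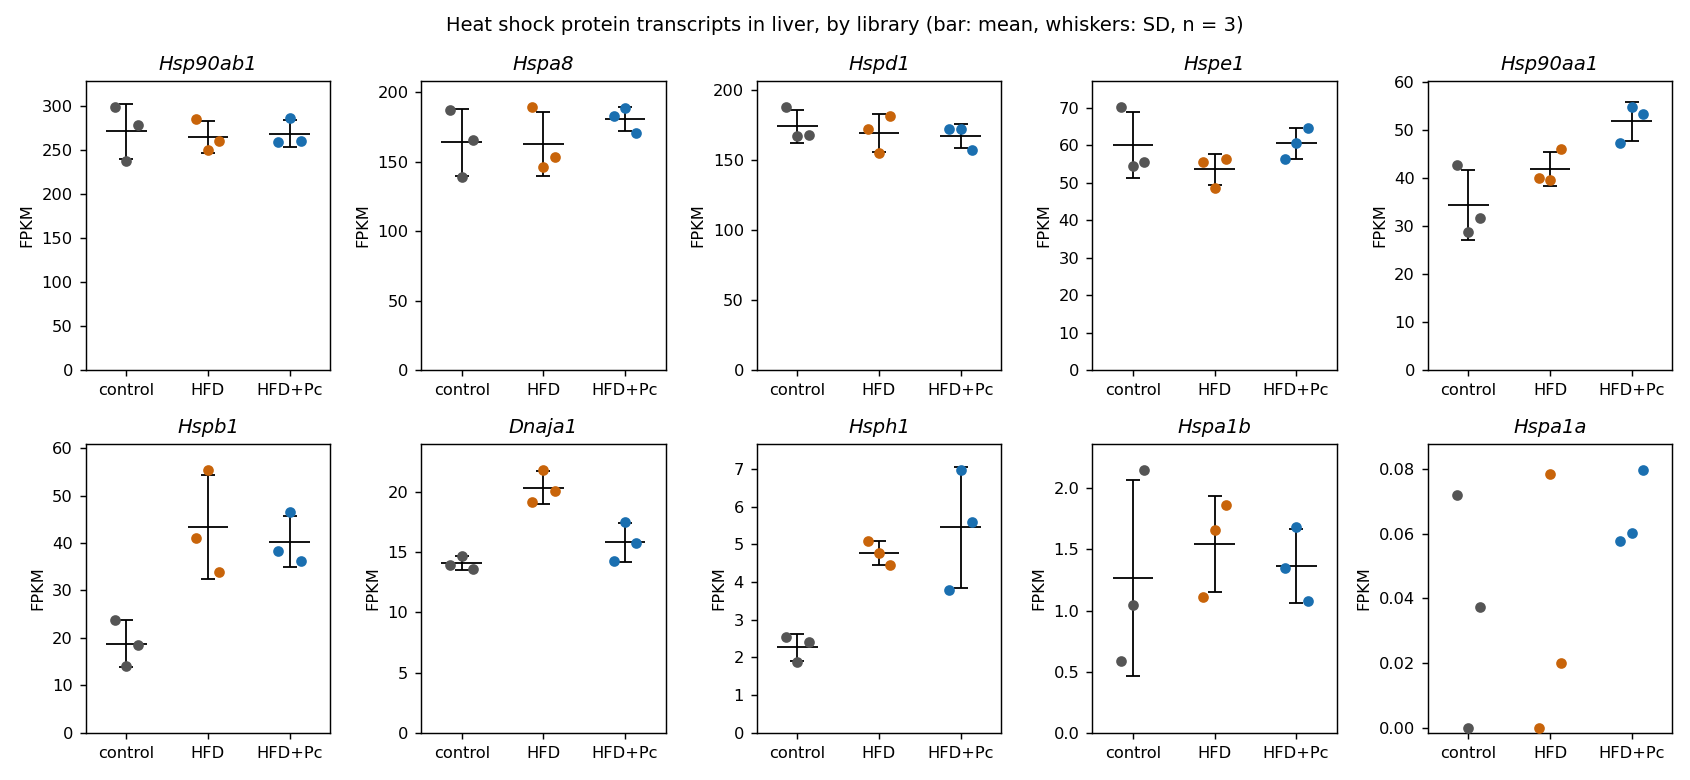
Each panel plots the FPKM of 1 gene (linear axis from 0) in the 9 libraries, with the mean as a bar and the SD as whiskers, except Hspa1a, which is at 0 to 4 fragments and has points only. Hspb1 and Hsph1 sit higher in all 6 high-fat libraries than in the 3 control libraries, Dnaja1 is highest in the 3 HFD libraries, and Hsp90ab1, Hspa8 and Hspd1 overlap between groups.

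The first comparison, HFD against control, asks what the diet alone was accompanied by in these genes. Of the 9 members tested, 3 passed limma's test at an adjusted p under 0.05, all of them higher in HFD: Hspb1, Hsph1 and Dnaja1. Of the 10988 genes tested, 9.97% passed: 4.61% as higher and 5.35% as lower. The median difference of the 9 members was 0.22 on the log2(FPKM + 1) scale, against 0.00 over all tested genes. That median was the value of Hspa1b, which did not pass, and 5 of the 9 differences lay above 0. The same 3 members were the ones whose HFD libraries all lay above the control libraries, a separation seen for 16.5% of tested genes, against 16.4% with all HFD libraries below and 32.9% in either direction. Dividing by plain read totals moved the share of higher calls over all genes from 46.3% to 69.4%, while these 3 calls were kept.

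Hspb1, the small heat shock protein, was at 23.9, 14.1 and 18.4 FPKM in control replicates 1, 2 and 4. In HFD replicates 1, 2 and 3 it was at 41.02, 55.4 and 33.9 FPKM. The lowest HFD library thus lay above the highest control library, and HFD replicate 2 was the highest of all 9. Its mean rose from 18.8 ± 4.89 to 43.4 ± 10.9 FPKM, a ratio of 2.31. On the log2(FPKM + 1) scale the difference was 1.17 ± 0.21 (SE; limma adjusted p = 0.0161), with a 95% interval of 0.69 to 1.65. The call was kept when any of the 9 libraries was left out.

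Hsph1, the HSP110 that releases ADP from HSP70, was at 2.55, 1.87 and 2.405 FPKM in control. It was at 5.09, 4.78 and 4.45 FPKM in HFD, where the 3 libraries were close together and far above control. The mean rose from 2.27 ± 0.356 to 4.77 ± 0.3203 FPKM, a ratio of 2.098. The log2 difference was 0.82 ± 0.17 (limma adjusted p = 0.021; 95% interval 0.45 to 1.20). The call was lost without control replicate 2 (adjusted p = 0.0703), HFD replicate 1 (0.0624) or HFD replicate 2 (0.0526), each from limma.

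Dnaja1, a J-domain partner of HSP70, was at 13.95, 14.7 and 13.6 FPKM in control and at 19.2, 21.8 and 20.1 FPKM in HFD. The spread within each group was small beside the gap between them. The mean rose from 14.1 ± 0.562 to 20.3 ± 1.33 FPKM, a ratio of 1.44, and the log2 difference was 0.50 ± 0.09 (limma adjusted p = 0.0135; 95% interval 0.30 to 0.70). All 9 fits that left out a library kept the call, with a highest limma adjusted p of 0.0461. The 3 calls were lost when no filter on low values was used (limma adjusted p = 0.0601 for Hspb1, 0.0752 for Hsph1 and 0.0507 for Dnaja1).

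The inducible cytosolic HSP90, Hsp90aa1, was at 42.7, 28.8 and 31.7 FPKM in control and at 39.9, 39.7 and 45.9 FPKM in HFD. Control replicate 1 lay within the HFD range. The log2 difference of 0.29 ± 0.14 did not pass (limma adjusted p = 0.209; 95% interval -0.02 to 0.60). Its constitutive paralogue Hsp90ab1 was at 299, 238 and 278 FPKM in control and 286, 251 and 261 FPKM in HFD, a log2 difference of -0.03 with a 95% interval of -0.27 to 0.22 (limma adjusted p = 0.896).

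Hspa8, the constitutive HSP70, was at 187, 139 and 166 FPKM in control and 189, 146 and 153 FPKM in HFD. The 2 sets of values nearly coincide, and the interval of the log2 difference ran from -0.31 to 0.29 (limma adjusted p = 0.976). For the mitochondrial pair the values were 187, 167 and 168 against 172, 155 and 181 FPKM for Hspd1, and 70.1, 54.5 and 55.5 against 55.6, 48.7 and 56.3 FPKM for Hspe1. The log2 differences of -0.04 (Hspd1; 95% interval -0.26 to 0.18) and -0.16 (Hspe1; -0.41 to 0.10) did not pass, with limma adjusted p = 0.817 and 0.406. Each of these intervals includes 0, and small changes of either sign could not be distinguished in these libraries.

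The inducible HSP70 genes were at the bottom of the range. Hspa1b was at 0.591, 1.05 and 2.15 FPKM in control (31, 50 and 109 fragments) and at 1.11, 1.66 and 1.87 FPKM in HFD (57, 80 and 88 fragments). The control libraries alone spanned the whole HFD range, and the log2 difference of 0.22 ± 0.23 did not pass (limma adjusted p = 0.585; 95% interval -0.31 to 0.74). Hspa1a had 4, 0 and 2 fragments in control, 0, 4 and 1 in HFD and 3, 3 and 4 in HFD+Pc. A count of 0 allows up to 3 fragments, which is 0.0541 to 0.0603 FPKM here, so no difference between groups was detectable at these counts.

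The coding sequences of Hspa1a and Hspa1b are 99.4% identical over their whole length, so the way fragments were divided between them is uncertain. Their summed level was 0.663, 1.05 and 2.19 FPKM in control, 1.11, 1.74 and 1.89 FPKM in HFD, and 1.404, 1.74 and 1.16 FPKM in HFD+Pc. None of the 3 comparisons of the sum passed (log2 differences from control of 0.21 in HFD and 0.13 in HFD+Pc, and -0.08 between HFD+Pc and HFD; limma adjusted p = 0.591, 0.713 and 0.903). Among the other members, near-identical copies held few fragments: at most 0.405% of the member's own for Hspb1, 2.4% for Hspa8 (over 9 of its 10 copies; Gm26825 was not analysed here), 1.87% for Hsp90aa1, 4.59% for Hspd1 and 5.54% for Hspe1. For Dnaja1 the copies held 3.39% to 8.57%, no copy of Hsph1 was found, and the copy of Hsp90ab1 had no fragments. How fragments that match several copies were counted is not given in the sources used here. If they were left out, members, copies and the sum of Hspa1a and Hspa1b would be read as too low, which these shares would not show.

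The second comparison, HFD+Pc against HFD, addresses the bacterium given on top of the diet. No member of the 9 tested passed limma's test in either direction, and voom on the recovered fragments also called none. At an unadjusted p under 0.05 there was 1 member, Dnaja1. Over all 10988 tested genes 0.628% passed (0.182% as higher and 0.446% as lower), and 1717 had an unadjusted p under 0.05. Plain read totals moved the share of higher calls among them from 29% to 14.9%. The median of the members was 0.02 and of all tested genes 0.01.

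Dnaja1 was at 14.2, 17.4 and 15.8 FPKM in HFD+Pc, and each of these lay below the lowest HFD library. The mean was 15.8 ± 1.61 against 20.3 ± 1.33 FPKM in HFD, a ratio of 0.777. The log2 difference of -0.35 ± 0.09 had a 95% interval of -0.54 to -0.15, an unadjusted limma p of 0.00308 and an adjusted p of 0.112. No fit that left out 1 library called it (limma adjusted p from 0.133 to 0.283). Hsp90aa1, at 47.2, 54.7 and 53.3 FPKM in HFD+Pc, and Hspe1, at 56.3, 60.6 and 64.5 FPKM, lay above their HFD libraries, Hspe1 by a narrow margin. Their log2 differences were 0.30 ± 0.14 and 0.17 and did not pass (limma adjusted p = 0.335 and 0.508). Groups that do not overlap were found for 19.8% of all tested genes in this comparison, 10.2% above and 9.56% below.

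Hspb1 and Hsph1, which rose on the diet, overlapped between HFD and HFD+Pc. Hspb1 was at 38.2, 46.5 and 36.2 FPKM in HFD+Pc, inside the HFD range, with a log2 difference of -0.09 ± 0.21 (limma adjusted p = 0.882; 95% interval -0.57 to 0.40). Hsph1 was at 3.79, 6.97 and 5.598 FPKM, a wider range than in HFD that reached both below and above it, with a difference of 0.13 ± 0.17 (limma adjusted p = 0.755; 95% interval -0.24 to 0.51). These intervals are wide, and a partial fall or a further rise within them was not distinguishable.

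The other members overlapped too. Hspa8 was at 183, 188 and 171 FPKM, Hsp90ab1 at 259, 287 and 261 FPKM, Hspd1 at 172, 172 and 157 FPKM and Hspa1b at 1.35, 1.68 and 1.08 FPKM in HFD+Pc. Their log2 differences from HFD were 0.16 for Hspa8, 0.02 for Hsp90ab1, -0.02 for Hspd1 and -0.10 for Hspa1b (limma adjusted p = 0.623, 0.955, 0.953 and 0.872).

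The third comparison, HFD+Pc against control, shares its control libraries with the first and its HFD+Pc libraries with the second. Of the 9 members 3 passed limma's test, all higher in HFD+Pc: Hspb1, Hsph1 and Hsp90aa1. Over all tested genes 23.1% passed, 11.1% as higher and 11.9% as lower. The same 3 were the members with every HFD+Pc library above every control library, as were 22.1% of all tested genes, while 20.8% lay wholly below and 42.8% did not overlap in either direction. The median difference of the members was 0.15, the value of Hspa8, which did not pass, against 0.01 over all tested genes.

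Hspb1 rose to a mean of 40.3 ± 5.43 FPKM, 2.14 times control, with a log2 difference of 1.08 ± 0.21 (limma adjusted p = 0.00918; 95% interval 0.60 to 1.56). For Hsph1 the mean was 5.45 ± 1.598 FPKM, 2.398 times control, and the log2 difference 0.95 ± 0.17 (limma adjusted p = 0.0057; 95% interval 0.58 to 1.33). Both calls were kept when any library was left out. Hsp90aa1, the inducible HSP90, had a mean of 51.7 ± 3.99 FPKM against 34.4 ± 7.33 in control, a ratio of 1.504. Its log2 difference was 0.59 ± 0.14 (limma adjusted p = 0.016; 95% interval 0.28 to 0.90), and the call was lost without control replicate 2 (limma adjusted p = 0.0543), control replicate 4 (0.0514) or HFD+Pc replicate 3 (0.0589), and without a filter on low values (0.0563).

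Dnaja1 overlapped control in this comparison, HFD+Pc replicate 1 lying among the control values. The log2 difference was 0.15 ± 0.09 (limma adjusted p = 0.234; 95% interval -0.04 to 0.35). Hspa8 (0.15), Hspa1b (0.12), Hspe1 (0.02), Hsp90ab1 (-0.01) and Hspd1 (-0.06) did not pass either, with limma adjusted p between 0.445 and 0.9603. Set side by side, the log2 differences from control on HFD and on HFD+Pc were 1.17 and 1.08 for Hspb1, 0.82 and 0.95 for Hsph1, 0.50 and 0.15 for Dnaja1, and 0.29 and 0.59 for Hsp90aa1. The Hsp90aa1 difference on HFD was 0.45 without control replicate 1 and 0.18 without control replicate 2, and the Dnaja1 difference on HFD+Pc was 0.084 without HFD+Pc replicate 3.

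**Figure D2:**
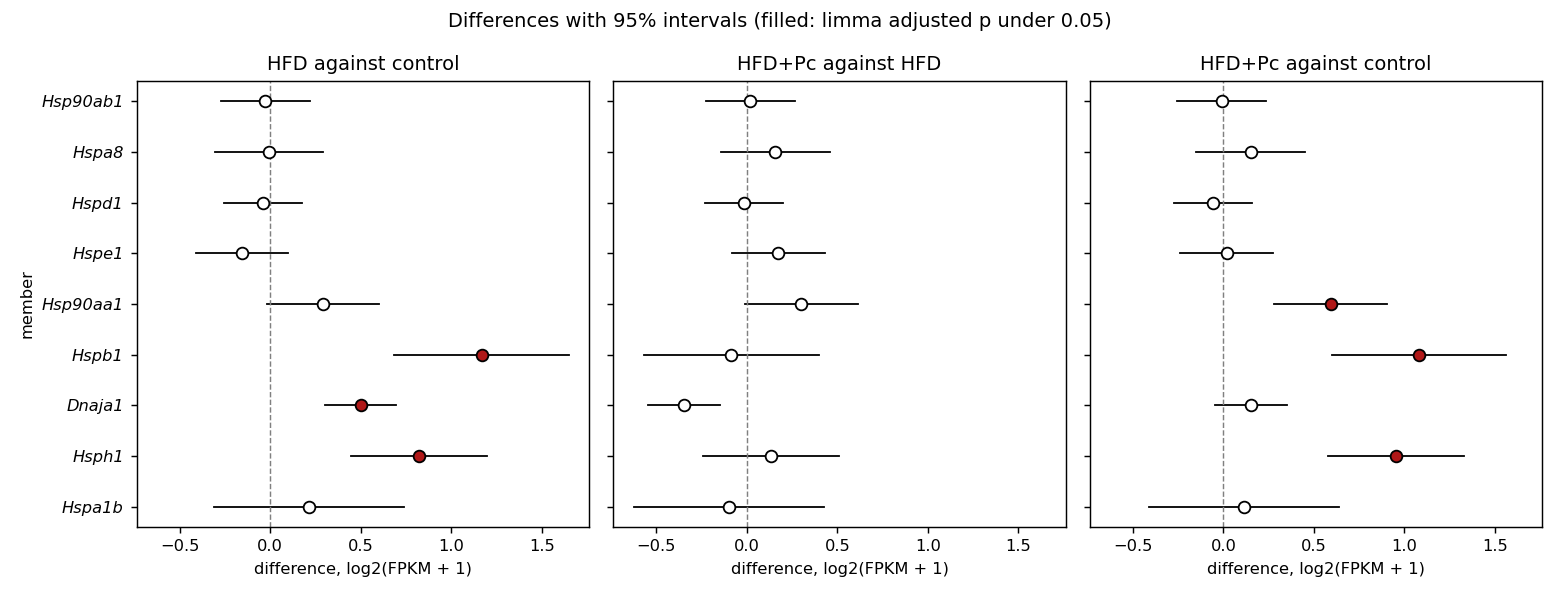
Points are log2(FPKM + 1) differences of the 9 tested members in the 3 comparisons, lines are 95% intervals, and filled points passed limma's test at an adjusted p under 0.05. Hspb1, Hsph1 and Dnaja1 are filled in HFD against control, none in HFD+Pc against HFD, and Hspb1, Hsph1 and Hsp90aa1 in HFD+Pc against control.

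Within the HSP90 pair, the share of the inducible form was computed per library as Hsp90aa1 in percent of the summed FPKM of Hsp90aa1 and Hsp90ab1. It was 12.5%, 10.8% and 10.2% in control, 12.3%, 13.7% and 14.98% in HFD, and 15.4%, 16.004% and 16.98% in HFD+Pc. All HFD+Pc libraries lay above the others, and HFD replicate 1 lay below control replicate 1. The means were 11.2% ± 1.18, 13.6% ± 1.36 and 16.1% ± 0.795. In two-sided exact permutation tests p was 0.2 for HFD against control and 0.1 for each of the other comparisons (adjusted over 6 tests 0.24, 0.15 and 0.15), where 0.1 is the smallest that 3 against 3 libraries can give.

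Hspe1 and Hspd1, which share a promoter region, were compared as a ratio of FPKM. It was 0.374, 0.327 and 0.331 in control, 0.323, 0.315 and 0.311 in HFD and 0.327, 0.353 and 0.411 in HFD+Pc. The HFD libraries were the lowest 3 of the 9 and the closest together. The means were 0.344 ± 0.0261, 0.316 ± 0.00621 and 0.364 ± 0.0429, with exact permutation p = 0.1 for HFD against control and HFD+Pc against HFD and 0.6 for HFD+Pc against control (adjusted over 6 tests 0.15, 0.15 and 0.6). None of these ratios could reach 0.05 at this number of libraries.

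**Figure D3:**
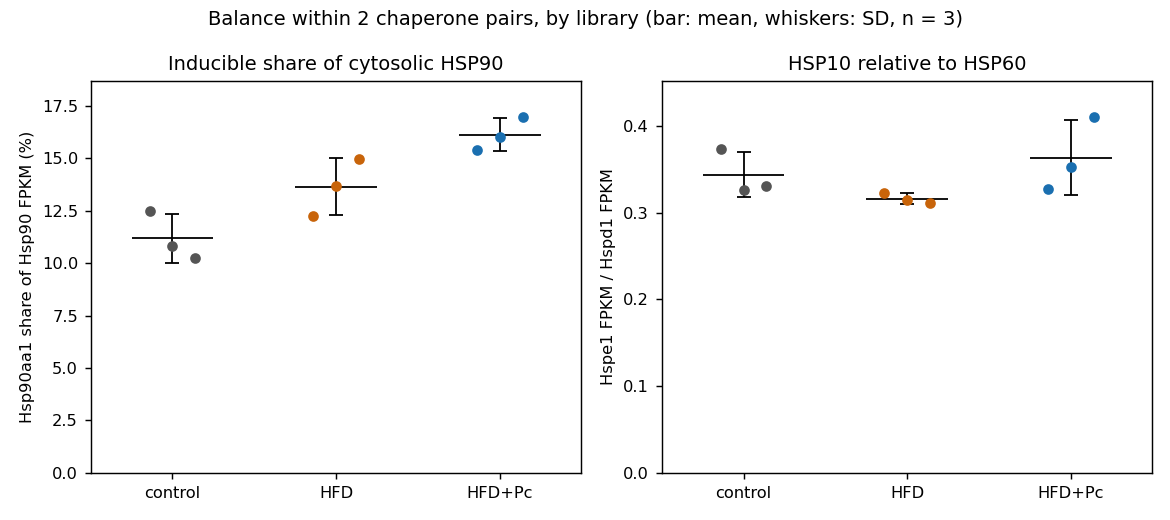
The left panel plots Hsp90aa1 in percent of the summed FPKM of both HSP90 genes, and the right panel the FPKM ratio of Hspe1 to Hspd1, per library with mean and SD. The HSP90 share runs from 10.2% to 12.5% in control and from 15.4% to 16.98% in HFD+Pc, and the Hspe1 to Hspd1 ratio is lowest in the 3 HFD libraries (0.311 to 0.323).

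The genes that work with these chaperones were described from lists of known partners. The list of heat shock factors also holds Hsbp1 and Hsf2bp, which bind such factors and are not factors themselves. Of its 6 genes 4 were tested: Hsf1, Hsf2, Hsf4 and Hsbp1. Hsf1, the main activator of the stress response, was at means of 1.62, 1.88 and 1.45 FPKM in control, HFD and HFD+Pc, and no comparison passed (limma adjusted p = 0.342 and 0.454 for HFD and HFD+Pc against control, and 0.2498 between them). Transcript level says nothing of HSF1 activity, which is set largely after translation. Hsf2 rose in HFD+Pc against control, from 2.05 to 3.36 FPKM (log2 difference 0.52; limma adjusted p = 0.00608), and was the only call of the list in the 3 comparisons.

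Among the other cytosolic HSP70 and HSP110 genes, 3 of 7 were tested and 1 passed, Hspa4, an HSP110 relative of Hsph1. It was at 19.3 ± 0.671 FPKM in control, 27.6 ± 1.80 in HFD and 26.5 ± 2.51 in HFD+Pc. The log2 difference was 0.49 ± 0.09 for HFD against control (limma adjusted p = 0.0135, lost at 0.0502 without control replicate 2) and 0.43 for HFD+Pc against control (limma adjusted p = 0.00906).

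Beside the calls of each partner list, above and below, stand the shares over all tested genes. They were 9.97% in HFD against control, 0.628% between HFD+Pc and HFD, and 23.1% in HFD+Pc against control. Of 26 tested co-chaperones of HSP90 and HSP70, 2 rose and 1 fell in HFD against control, none passed in HFD+Pc against HFD, and 6 rose and 3 fell in HFD+Pc against control. The 3 calls of the first comparison are near the share over all genes. Chordc1, an HSP90 co-chaperone, rose from 2.76 ± 0.386 FPKM in control to 4.79 ± 0.455 in HFD (log2 difference 0.63 ± 0.10; limma adjusted p = 0.0103). In HFD+Pc it was at 5.42 ± 0.494 FPKM (0.78 above control; limma adjusted p = 0.00201), and both calls were kept whichever library was left out. Bag5, which acts on HSP70, fell from 7.33 to 5.51 FPKM in HFD (log2 difference -0.36; limma adjusted p = 0.03498, lost in 5 of 9 fits without a library) and to 4.095 FPKM in HFD+Pc (-0.71; 0.00166). Cdc37l1 rose by 0.30 in HFD (limma adjusted p = 0.0471, lost in each of the 9 fits without a library) and by 0.43 in HFD+Pc (0.00676).

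In HFD+Pc against control, Cacybp, which binds Siah1 and is grouped with the co-chaperones, rose from 9.34 to 13.8 FPKM (0.53; limma adjusted p = 0.00914). Cdc37, the kinase-specific HSP90 co-chaperone, fell from 8.24 to 5.74 FPKM (-0.46; limma adjusted p = 0.00933). Fkbp5, an HSP90 co-chaperone that glucocorticoids induce, fell from 7.604 ± 3.02 to 2.399 ± 0.261 FPKM (-1.29 ± 0.28; limma adjusted p = 0.0137, lost at 0.0502 without HFD+Pc replicate 3). The co-chaperones thus moved in both directions, and the median over the 26 was 0.09, 0.02 and 0.05 in the 3 comparisons, in the order given above.

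None of the 15 tested cytosolic J-domain genes of 18 listed passed in the first 2 comparisons. Dnajb1, the classic heat-inducible HSP40, was at means of 4.59, 5.56 and 4.70 FPKM in control, HFD and HFD+Pc (limma adjusted p = 0.268 for HFD against control). HFD+Pc against control gave 3 calls of 15, no more than the 23.1% of all tested genes: Dnajb2 (0.48; limma adjusted p = 0.0174) and Dnajc2 (0.29; 0.0354) rose and Dnajc7 fell (-0.39; 0.009997). The small heat shock proteins other than Hspb1 had 4 of 10 genes tested and no call in any of the comparisons, at medians of 0.28, -0.31 and -0.01. The cytosolic chaperonin TRiC had all 8 subunits tested and 2 calls, Tcp1 (0.44; limma adjusted p = 0.0131) and Cct4 (0.24; 0.0367), both higher in HFD+Pc against control, where 2 of 8 is near the 23.1% of all tested genes. Tcp1 lost its call without HFD+Pc replicate 3, and Cct4 in 6 of 9 fits without a library.

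Around Hspd1 and Hspe1 in the mitochondrion, all 20 listed chaperones and proteases were tested. Hspa9, the mitochondrial HSP70, was at means of 116.1, 115.99 and 112 FPKM in control, HFD and HFD+Pc (limma adjusted p = 0.989 for HFD against control). HFD against control gave 1 gene higher, Bcs1l, an assembly factor of respiratory complex III (0.42; limma adjusted p = 0.0247, lost in 4 of 9 fits without a library), and 1 lower, Grpel1, the nucleotide exchange factor of Hspa9 (-0.33; 0.04003, lost in 8 of 9 fits without a library). HFD+Pc against HFD gave none. HFD+Pc against control gave Clpb (0.41; limma adjusted p = 0.017013) and the protease Yme1l1 (0.35; 0.0204) higher and Dnajc11 (-0.33; 0.0242) lower. The 2 of 20 calls in the first comparison are near the 9.97% of all tested genes, and the 3 of 20 in the last are below the 23.1%.

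The ER chaperones, a compartment outside the 10 members, had 19 of 19 genes tested. In HFD against control 2 rose, Canx (0.33; limma adjusted p = 0.0457, lost in 8 of 9 fits without a library) and Pdia3 (0.51; 0.029, lost in 4 of 9), which are named after their values were seen. In HFD+Pc against HFD 1 was higher, Dnajb9 (0.77, limma adjusted p = 0.0244, lost in 5 of 9 fits without a library). Against control, 7 of 19 rose and none fell in HFD+Pc, at a median of 0.40, where 11.1% of all tested genes rose and 11.9% fell. Dnajb9, an ER J-domain protein, rose from 18.4 to 37.9 FPKM there (1.01; limma adjusted p = 0.00141) and Hspa13 from 4.36 to 7.66 FPKM (0.69; 0.00587). Hspa5, the ER HSP70 known as BiP, was at 64.9 ± 5.104 FPKM in control, 87.9 ± 14.9 in HFD and 126 ± 26.5 in HFD+Pc, and passed in HFD+Pc against control only (0.93 ± 0.17; limma adjusted p = 0.00619). Its differences of 0.42 in HFD against control and 0.51 in HFD+Pc against HFD did not pass (limma adjusted p = 0.142 and 0.196). Hsp90b1, the ER HSP90, was at 67.5, 72.8 and 86.7 FPKM and passed in no comparison (limma adjusted p = 0.591 and 0.0714 for HFD and HFD+Pc against control, and 0.404 between them).

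Several partner calls were close to the threshold. Leaving out control replicate 2 or HFD+Pc replicate 3 ended those of Clpb and Dnajb2 in HFD+Pc against control (limma adjusted p up to 0.0584 and 0.0604), and such fits ended the calls of Yme1l1 (4 of 9, up to 0.0771), Dnajc11 (4 of 9, up to 0.0855) and Dnajc2 (5 of 9, up to 0.111). Without a filter on low values the calls of Hspa4, Bag5, Cdc37l1, Bcs1l, Grpel1, Canx and Pdia3 in HFD against control, of Dnajb9 in HFD+Pc against HFD, and of Dnajb2, Dnajc2, Cct4, Clpb, Yme1l1 and Dnajc11 in HFD+Pc against control were lost.

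**Figure D4:**
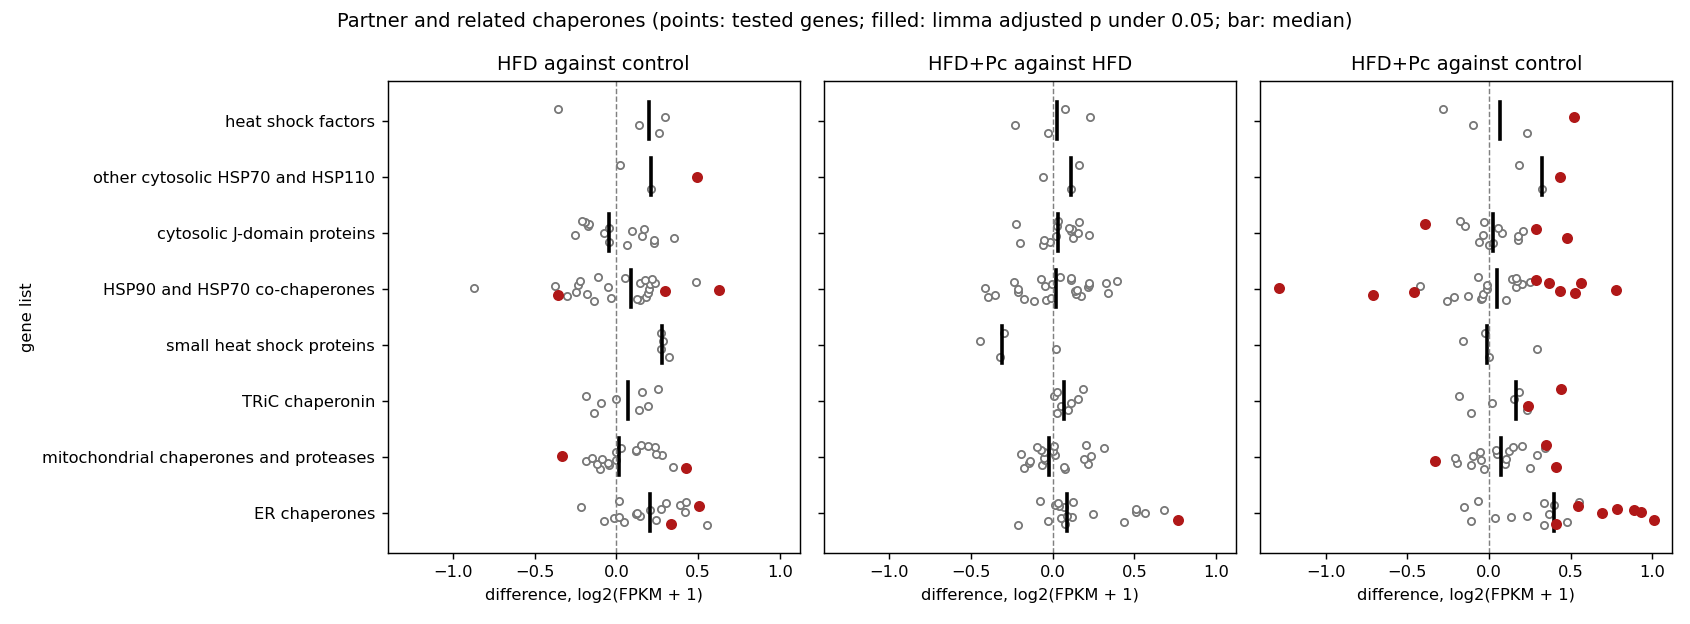
Each point is 1 tested gene of a list of related chaperones, placed at its log2(FPKM + 1) difference in the comparison named above the panel, filled where limma's adjusted p is under 0.05, with the list's median as a bar. Filled points are few in HFD against control and HFD+Pc against HFD, and in HFD+Pc against control the ER chaperones show 7, all to the right of 0.

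The libraries were whole liver, in which fewer cells of a type and less RNA per cell cannot be told apart. Beside the marker calls here and in the next paragraph stand the shares over all tested genes. In HFD against control 4.61% were called as higher and 5.35% as lower. In HFD+Pc against control these shares were 11.1% and 11.9%. Hepatocyte markers were present throughout, with a summed FPKM of 49764 to 51424 in control, 34152 to 36763 in HFD and 38456 to 52948 in HFD+Pc. Alb, at 26086 to 41658 FPKM over the 9 libraries, made up most of each sum. In HFD against control 1 of the 8 was called, as lower. Endothelial markers summed to 85.5 to 95.2, 60.2 to 73.9 and 70.3 to 71.4 FPKM (3 of 8 lower in HFD), and stellate cell markers to 116 to 129, 90.6 to 105 and 88.5 to 106 FPKM (2 of 8 lower). Macrophage markers summed to 308 to 414, 271 to 371 and 219 to 323 FPKM, with none of 10 called in HFD against control. In HFD+Pc against control, where Hspb1, Hsph1 and Hsp90aa1 rose, 2 macrophage, 2 hepatocyte, 2 endothelial and 3 stellate cell markers were lower. In the same comparison 1 hepatocyte and 1 stellate cell marker were higher, as was the adipocyte marker Cfd (log2 difference 2.28).

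The listed cell types with a marker called as higher in HFD against control were B and plasma cells and adipocytes. The 6 B and plasma cell genes summed to 19.3 to 26.2 FPKM in control, 46.7 to 76.97 in HFD and 23.2 to 33.4 in HFD+Pc, and 2 of the 3 tested rose in HFD. Igkc alone reached 71.8 FPKM in its highest library. The 5 adipocyte genes summed to 0 to 0.212, 5.67 to 25.7 and 2.49 to 6.26 FPKM in the 3 groups, and only Cfd among them passed the filter and was tested. HFD replicate 1 had the highest sum, 25.7 FPKM, of which Cfd made up 84.8%, and it alone had values above 0 for Plin1 (0.164 FPKM) and Lep (0.0487 FPKM). HFD replicates 2 and 3 had sums of 10.7 and 5.67 FPKM, and Adipoq was at 1.54 FPKM in replicate 1, 0 in replicate 2 and 0.129 in replicate 3. Without HFD replicate 1, Hspb1 (1.19, limma adjusted p = 0.0452) and Dnaja1 (0.54, limma adjusted p = 0.0312) were still called in HFD against control. Hsph1 was not (0.78, limma adjusted p = 0.0624). HFD replicates 2 and 3, kept in that fit, also had adipocyte sums above the control range. That fit therefore does not separate adipocyte transcripts from the diet. Immediate early genes, which handling can induce, moved the other way, at 62.2 to 144 FPKM in control, 47.4 to 53.97 in HFD and 55.9 to 62.4 in HFD+Pc, with 2 of 9 tested lower in HFD and 4 lower and 1 higher in HFD+Pc against control. Neutrophil markers summed to 2.49 to 7.99, 4.39 to 15.3 and 5.84 to 5.90 FPKM, with Ly6g listed at 0 in all 9 libraries, and bile duct markers to 17.7 to 25.5, 23.7 to 39.4 and 19.5 to 32.4 FPKM, with no call in HFD against control for either. The 2 tested neutrophil genes were both higher in HFD than in control, at a median difference of 0.86, beside 0.91 for the B and plasma cell genes. The part of any of these markers in the heat shock protein results was not tested.

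The members did not follow a single pattern over the 9 libraries. The correlation of each with the mean standardised profile of the 9 tested members, which contains the member itself, ran from 0.8496 for Hsp90aa1, 0.799 for Hsph1, 0.737 for Hspa8 and 0.726 for Hspb1 through 0.677 for Hsp90ab1 to 0.379 for Hspe1, 0.356 for Dnaja1, 0.308 for Hspd1 and 0.0733 for Hspa1b. Outside the members, the tested genes most like that mean profile were Pak1ip1 (Pearson r = 0.927), Ino80c (0.919), Yars2 (0.916), Wars2 (0.911) and Aimp1 (0.904). These correlations over 9 libraries in 3 groups are a description: they include differences between groups and whatever the libraries share, such as depth.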

How the data were processed

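Liver RNA was extracted with Trizol and sequenced on Illumina libraries, per the labels' protocols. HISAT2 2.0.5 and the build GRCm39 are named in the submitters' processing notes; the counting program is not given in the sources used here. The deposited values are FPKM, computed by the authors. Median of ratios factors computed on these values were 0.9997 to 1.021, so that alternative scaling stayed close to the main fit. Values of 96.5% of genes above 0 came out as whole fragments (tolerance 0.02) with GENCODE M21 exon lengths, and these fragments served voom. The 10 members and the gene lists were chosen with earlier results of these data known. All partner lists were tested the same way: limma 3.58.1 (R 4.3.3; trend and robust) on log2(FPKM + 1) of 10988 genes with at least 1 FPKM in 3 or more libraries, over all 9 libraries, Benjamini-Hochberg over all tested genes, threshold 0.05. The fit was tested on simulated data. A fold on this scale understates the change of low genes. Named partners are up to 3 per list and direction with the lowest adjusted p, plus Hsf1, Hspa5, Hsp90b1, Hspa9 and Dnajb1. Copies share at least 90% identity over 50% or more of the longest open reading frame (BLAST). Promoters come from RefSeq, GRCm38.p6, matched by symbol. Alternatives were the pseudocount 0.1, the filter, scaling, the groups fitted, the replicate block, voom and leaving out each library; plain read totals were added after seeing the data.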

Additional observations from a re-analysis of the deposited data

How the results depend on the processing

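Differences are log2(FPKM + 1) units and calls are limma's at an adjusted p under 0.05. Genes called numbered 1095 in HFD against control, 69 between HFD+Pc and HFD, and 2538 in HFD+Pc against control, the order kept below. Leaving out 1 library gave 332 to 1126, 5 to 123 and 1396 to 2644, and 2 to 3, 0 and 2 to 3 members called. A filter of 0.1 FPKM gave 725 and 27 genes in the first 2 comparisons, no filter 209, 3 and 1383, and fitting only the groups compared 678 and 22. In HFD+Pc against HFD quantile normalisation gave 107, voom 115 and plain read totals 114. Members called fell from 3 to 0 in HFD against control without a filter. Replicate numbers did not pair the libraries: deviations of same-numbered libraries correlated at -0.12 to 0.05. With the number as a replicate block, 232, 3 and 1060 genes and 0, 0 and 1 members were called (Hsph1 in HFD+Pc against control). In that comparison the block gave 3 ER chaperones and 3 co-chaperones called as higher, against 7 and 6 without it.

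Signs turned only among members and partners that did not pass. Quantile normalisation gave 0.055 for Hspa8, 0.000959 for Hspd1 and 0.0497 for Hspa9 in HFD against control and -0.0431 for Hsp90ab1 in HFD+Pc against HFD. Plain read totals gave 0.0717 for Hspa8, 0.0516 for Hsp90ab1, 0.0384 for Hspd1 and 0.0768 for Hspa9 in HFD against control, and -0.0584 for Hsp90ab1 in HFD+Pc against HFD. The replicate block gave -0.0348 for Hsp90ab1 in HFD+Pc against HFD and -0.0509 for Hspe1 in HFD+Pc against control. Leaving out 1 library gave, in HFD against control, -0.121 to 0.0441 for Hsp90ab1, -0.122 to 0.0919 for Hspa8, -0.0553 to 0.0484 for Hspa9, -0.0909 to 0.0222 for Hspd1, -0.0092 to 0.483 for Hspa1b and -0.000358 to 0.469 for Hspa1a and Hspa1b summed. In HFD+Pc against HFD it gave -0.029 to 0.0717 for Hsp90ab1, -0.103 to 0.000679 for Hspa9, -0.0805 to 0.0325 for Hspd1, -0.245 to 0.101 for Hspb1, -0.0366 to 0.331 for Hsph1, -0.00424 to 0.272 for Cirbp and -0.216 to 0.0112 for the sum of Hspa1a and Hspa1b. In HFD+Pc against control it gave -0.102 to 0.0625 for Hsp90ab1, -0.0464 to 0.132 for Hspe1, -0.109 to 0.383 for Hspa1b, -0.0773 to 0.392 for that sum, -0.0765 to 0.106 for Dnajb1 and -0.00396 to 0.0379 for the ratio of Hspe1 to Hspd1 FPKM. The cause of these changes was not tested. Hspa1a, at 0 to 4 fragments a library, is limited by these low counts and by the uncertain division of fragments between it and Hspa1b.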

Other observations

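Cirbp and Rbm3 encode RNA-binding proteins that mild cold induces and heat represses, and were looked up after the values of the heat shock genes had been seen. Cirbp was at 15.7 ± 3.06 FPKM in control, 5.93 ± 0.407 in HFD and 6.66 ± 1.45 in HFD+Pc (SD, n = 3). The log2(FPKM + 1) difference fell by 1.26 in HFD (limma adjusted p = 0.00532) and by 1.13 in HFD+Pc (limma adjusted p = 0.00302) against control, and both calls were kept whichever library was left out. Rbm3 was at 7.11 ± 1.45, 2.92 ± 0.222 and 4.48 ± 0.818 FPKM in the same order. Its difference from control was -1.03 in HFD (limma adjusted p = 0.00668, kept whichever library was left out). In HFD+Pc it was -0.56 (limma adjusted p = 0.0233), lost without control replicate 1 or 2 or HFD+Pc replicate 1 or 3, with a highest adjusted p of 0.0844. Neither gene passed in HFD+Pc against HFD (limma adjusted p = 0.752 for Cirbp and 0.166 for Rbm3).

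Within the control group, replicate 1 had the highest FPKM in 8 of the 10 heat shock genes and replicate 2 the lowest in 8. In HFD+Pc, replicate 3 was the highest in 7 of 10. The 10 include Hspa1a, which had few fragments. How often the same libraries were highest or lowest over all tested genes was not counted. These ranks are therefore not shown to be particular to the heat shock genes.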
